A study of Mus musculus with 6 samples.

Results

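Matrix metalloproteinases (MMPs) and the tissue inhibitors that block them (TIMPs) were followed here in 10 genes, Mmp3, Mmp8, Mmp9, Mmp12, Mmp13, Mmp14, Mmp19, Timp1, Timp2 and Timp3. They were found by the RefSeq accession that the array design gives each probe, and every probe of these genes was kept, whatever its value. The 10 genes are among 23462 mouse genes that could be matched in this way, and 16 of 56605 probes belong to them.

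All 6 samples were BV2 cells, an immortalized mouse microglial line, that had received LPS, the bacterial lipopolysaccharide that sets off an inflammatory response. The control group was 3 samples without PGC-1α overexpression, and the other group was 3 samples with it, so no sample shows the genes without LPS. The cell culture methods give 500 ng/ml LPS for 6 h for BV2 cells but do not name the arrays. PGC-1α, a transcriptional coactivator encoded by Ppargc1a, was delivered on a lentivirus with puromycin selection according to those methods, in a line that is not primary microglia. The methods also describe a negative control lentivirus. They do not say whether the control cells of these arrays received it or puromycin. The part of vector and selection in the differences was not tested. Each RNA sample was read on an Agilent 1-colour array. Slide 1 carried replicates 1 and 2 of each group and slide 2 carried replicate 3 of each. The labels do not say whether the samples of a group came from separate cultures, so the p-values measure the spread between these samples, which may be technical.

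MMPs are zinc-dependent endopeptidases that cut collagens, gelatin, proteoglycans and other proteins of the extracellular matrix. Most are secreted as inactive proenzymes and become active once the propeptide is removed, and TIMPs then bind the active site. In the brain, gelatinases of this family are known for opening the basement membrane of the blood-brain barrier after ischemia, and microglia are among their sources.

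Values are log2 signals relative to the 75th percentile of the same array, so 0 is the 75th percentile and a negative value lies below it. To be tested, a probe had to carry the scanner software's flag for a signal well above background on every array of at least 1 group. Groups were compared with limma and a Benjamini-Hochberg adjustment over all 39295 probes tested, at a threshold of 0.05, and every fold change is the arrays labelled PGC-1α overexpression minus control. With 3 arrays against 3 an exact permutation test cannot go below p = 0.1. The 75th percentile itself was lower on the overexpression arrays (856 to 1268) than on the control arrays (1617 to 1893). Over all tested probes the log2 fold change had a median of 0.25 with this scaling, which quantile normalization brought to 0.05, and changes are also given relative to 0.25 or after quantile normalization. The expression profile as a whole moved, and 53.5% of all tested probes passed the threshold.

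The labels could not be firmly checked through Ppargc1a, since neither of its 2 probes met the filter. On the first, control replicates 1 to 3 read -6.21, -6.37 and -7.71 and overexpression replicates 1 to 3 read -5.70, -5.28 and -5.90, with 2 arrays of each group well above background. Before scaling, the intensities of this probe were 21.8, 19.6 and 9.06 against 22.3, 22.1 and 21.2. On the second probe the groups overlapped, with -6.84, -6.33 and -7.10 against -7.00, -6.11 and -6.40, and its intensities before scaling were 14.1, 20.3 and 13.8 against 9.07, 12.4 and 15.0. Of 11 markers of microglia and macrophages, 9 were tested. Cx3cr1 and P2ry12, which mark resting microglia, were not well above background on any array. Of the 9, 4 were higher and 1 was lower, and after quantile normalization none was higher and 1 was lower. The lower was Tmem119, another microglial marker, which fell by 2.68 (SE 0.18, adjusted p = 7.88e-05, limma).

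Of the 10 genes, 7 had a probe bright enough to test, Mmp8, Mmp9, Mmp14, Mmp19, Timp1, Timp2 and Timp3. Taking the brightest tested probe of each gene, 4 of the 7 passed the threshold. Mmp19 was lower with PGC-1α overexpression and Mmp8, Mmp9 and Timp3 were higher. Over all 17172 genes measured the same way, 53% passed (34.6% of the genes tested were higher and 18.4% lower), so the count among MMPs and TIMPs lay near the background. The median log2 fold change of the 7 genes was 0.34, beside 0.23 for all genes. After quantile normalization 1 of the 7 passed, Mmp19, where 42.1% of all genes did, 21.2% higher and 20.9% lower. The 2 medians were then 0.17 for the 7 genes and 0.02 for all genes.

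**Figure D1:**
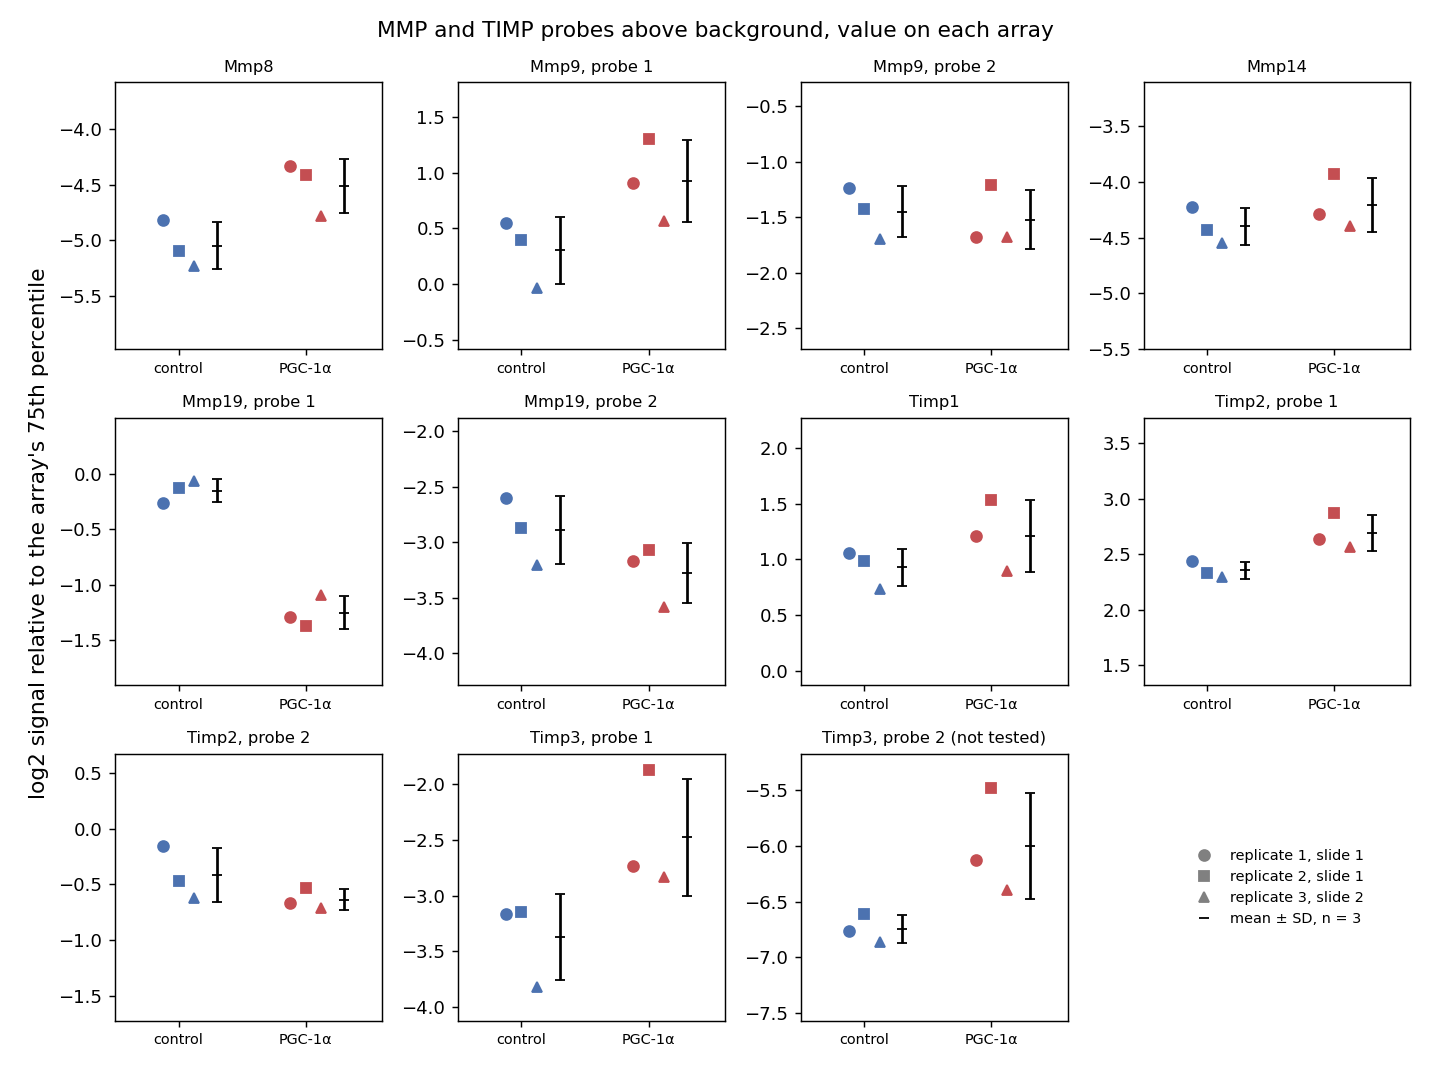
Log2 signal relative to the array's 75th percentile (y axis) for the 11 MMP and TIMP probes that were well above background on some array, with 1 point per array, circles and squares for slide 1, triangles for slide 2, and bars for the mean ± SD (n = 3). All panels span the same height, and the overexpression arrays of Mmp19 probe 1 lie between -1.37 and -1.09, below all 3 control arrays.

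Mmp19 encodes a soluble MMP that cuts basement membrane components. Its brighter probe (NM_021412) read -0.26, -0.13 and -0.07 on control replicates 1 to 3 and -1.29, -1.37 and -1.09 on overexpression replicates 1 to 3. The groups did not overlap, and the gap between them was several times the spread within either. The mean went from -0.15 ± 0.10 (SD, n = 3) to -1.25 ± 0.15 (SD, n = 3). This is a log2 fold change of -1.10 (95% confidence interval -1.42 to -0.78, adjusted p = 0.000925, limma), or 2.14-fold lower. Relative to the median of all probes the change was -1.34, and after quantile normalization it was -1.08 (adjusted p = 0.00099, limma). It passed in all 19 alternative fits that kept single probes, including each fit with 1 array left out, with log2 fold changes between -1.21 and -0.99.

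The second Mmp19 probe, of the same accession, gave a smaller difference. It read -2.60, -2.87 and -3.21 in control cells and -3.17, -3.07 and -3.59 in PGC-1α-overexpressing cells, so the groups overlapped. The log2 fold change was -0.38 (95% confidence interval -0.86 to 0.09, adjusted p = 0.145, limma), and after quantile normalization it was -0.47 (adjusted p = 0.0927, limma). Within slide 1 both overexpression arrays lay below both control arrays, and the pair on slide 2 differed in the same direction. With the slide as a block this probe passed (adjusted p = 0.0350, limma), as it did with array weights (adjusted p = 0.0432, limma), while it did not in the other 17 of 19 alternative fits. Where in the transcript the probes lie is not known here.

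Mmp9 encodes gelatinase B, which degrades denatured collagen and the type IV collagen of basement membranes. On its brighter probe (NM_013599), control replicates 1 to 3 read 0.54, 0.40 and -0.04, and overexpression replicates 1 to 3 read 0.91, 1.30 and 0.57. Every overexpression array lay above every control array, the closest pair being overexpression replicate 3 and control replicate 1. Before scaling the groups overlapped, with intensities of 2359, 2145 and 1847 in control cells and 2171, 2108 and 1881 in PGC-1α-overexpressing cells. The log2 fold change was 0.62 (95% confidence interval 0.10 to 1.15, adjusted p = 0.0486, limma), just inside the threshold, and it was 0.57 after quantile normalization (adjusted p = 0.0687, limma). The call held in 9 of 19 alternative fits. Of the fits without 1 array, only that without overexpression replicate 3 kept it, and the estimate was as low as 0.44.

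The other Mmp9 probe did not show this difference. It read -1.24, -1.42 and -1.69 in control cells and -1.67, -1.21 and -1.68 in PGC-1α-overexpressing cells, and the groups overlapped. Its log2 fold change was -0.07 (95% confidence interval -0.50 to 0.36, adjusted p = 0.763, limma). With the mean of both probes standing for the gene, Mmp9 gave 0.28 (adjusted p = 0.271, limma).

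Mmp8 encodes the neutrophil collagenase, which cleaves fibrillar collagens. Its probe (NM_008611) was dim but well above background on all 6 arrays, with -4.81, -5.10 and -5.23 in control cells and -4.33, -4.41 and -4.78 in PGC-1α-overexpressing cells. The groups were separated by a narrow margin, between control replicate 1 and overexpression replicate 3. Before scaling they overlapped, with intensities of 57.5, 47.6 and 50.3 in control cells and 57.4, 40.2 and 46.0 in PGC-1α-overexpressing cells. The log2 fold change was 0.54 (95% confidence interval 0.13 to 0.95, adjusted p = 0.0343, limma), 0.29 of it above the median of all probes. After quantile normalization it was 0.34 (adjusted p = 0.127, limma) and the groups overlapped, and with normexp before it 0.13. The call held in 9 of 19 alternative fits, and it was lost without control replicate 2 (0.51), control replicate 3 (0.45), overexpression replicate 1 (0.45) or overexpression replicate 2 (0.49).

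Mmp14 encodes a membrane-anchored MMP that activates the proenzyme of gelatinase A on the cell surface. Its probe (NM_008608) read -4.22, -4.43 and -4.55 in control cells and -4.29, -3.93 and -4.40 in PGC-1α-overexpressing cells. The groups overlapped, and the log2 fold change was 0.19 (95% confidence interval -0.20 to 0.58, adjusted p = 0.357, limma). That interval holds the median change of all probes, as do the intervals of Mmp8 and of the brighter Mmp9 and Timp3 probes, which passed.

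Among the inhibitors, Timp3 showed the largest difference. TIMP-3 is bound to the matrix and also inhibits sheddases of the ADAM family. Its brighter probe (NM_011595) read -3.16, -3.14 and -3.82 in control cells and -2.73, -1.87 and -2.83 in PGC-1α-overexpressing cells. The groups did not overlap, and overexpression replicate 2 stood above the rest of its group. Before scaling the groups overlapped, with intensities of 181, 184 and 134 in control cells and 174, 234 and 178 in PGC-1α-overexpressing cells. The log2 fold change was 0.90 (95% confidence interval 0.22 to 1.58, adjusted p = 0.0333, limma), and 0.83 after quantile normalization (adjusted p = 0.0598, limma). The call held in 13 of 19 alternative fits, with an estimate of 0.54 under array weights, and it was lost without control replicate 1 (1.01), without control replicate 3 (0.68) or without overexpression replicate 2 (0.59).

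A dimmer Timp3 probe was well above background on replicates 1 and 2 of each group and on neither replicate 3, and so was not tested. It read -6.76, -6.61 and -6.87 in control cells and -6.13, -5.48 and -6.39 in PGC-1α-overexpressing cells. All 3 overexpression arrays lay above all 3 control arrays here too, with means 0.75 apart. Before scaling, however, its intensities of 14.9, 16.6 and 16.2 in control cells and 16.5, 19.2 and 15.1 in PGC-1α-overexpressing cells overlapped.

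Timp1 encodes an inhibitor that also binds the proenzyme of MMP-9. Its probe (NM_001044384) read 1.06, 0.99 and 0.74 in control cells and 1.21, 1.54 and 0.89 in PGC-1α-overexpressing cells. Overexpression replicate 3 lay inside the control range, and the log2 fold change was 0.29 (95% confidence interval -0.16 to 0.73, adjusted p = 0.232, limma).

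Timp2 encodes the inhibitor that links MMP-14 to the gelatinase A proenzyme. Its brighter probe (NM_011594) read 2.44, 2.33 and 2.29 in control cells and 2.64, 2.87 and 2.56 in PGC-1α-overexpressing cells. The groups did not overlap under this scaling, and the log2 fold change was 0.34 (95% confidence interval 0.01 to 0.66, adjusted p = 0.0727, limma). After quantile normalization the groups overlapped, with an interval of -0.26 to 0.27. The other Timp2 probe read -0.15, -0.47 and -0.62 against -0.67, -0.53 and -0.72, with a log2 fold change of -0.22 (adjusted p = 0.262, limma).

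**Figure D2:**
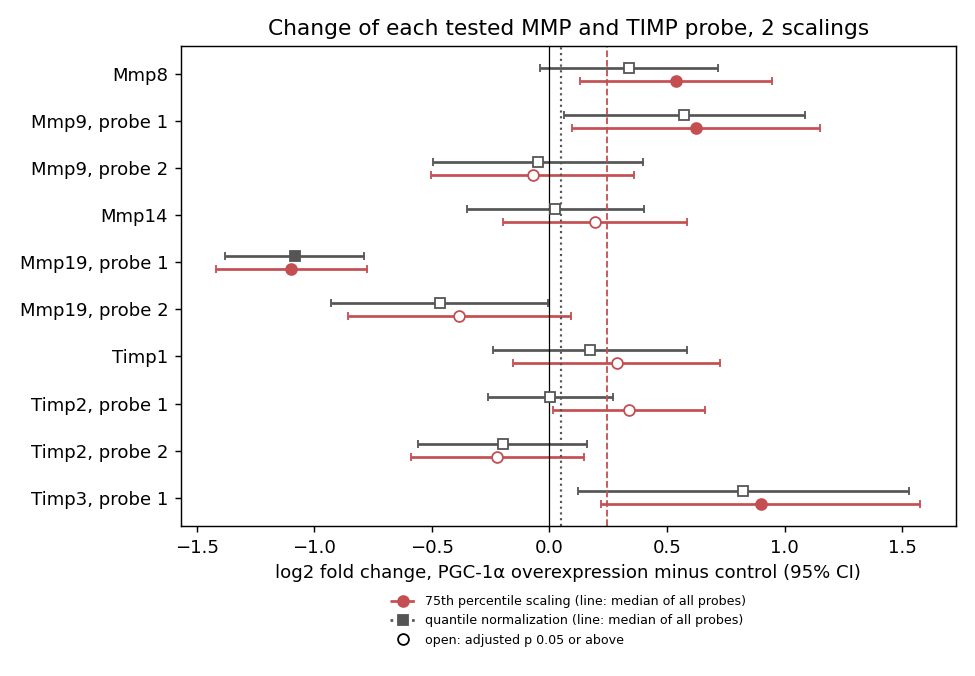
Log2 fold change with its 95% confidence interval (x axis) for the 10 tested MMP and TIMP probes (y axis), with red circles for the 75th percentile scaling and grey squares for quantile normalization. Filled symbols passed an adjusted p of 0.05, and the vertical lines mark the median of all tested probes, 0.25 and 0.05. Mmp19 probe 1 is the only probe filled under both scalings.

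Counted over probes in place of genes, 4 of the 10 tested probes passed, 3 higher and 1 lower, where 53.5% of all tested probes passed. After quantile normalization it was 1 of the 10, where 43.1% of all probes passed. On 5 of the 10 the groups did not overlap, compared with 63.6% of all tested probes with a value on every array. After quantile normalization the groups were apart on 3 of the 10, the brighter probes of Mmp9, Mmp19 and Timp3, compared with 57.3% of all probes.

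The 3 genes with 2 well-detected probes each allow a comparison within an array, in which the scaling to the 75th percentile cancels. For Mmp9 the brighter probe exceeded the other by 1.78, 1.82 and 1.66 on control replicates 1 to 3 and by 2.58, 2.51 and 2.25 on overexpression replicates 1 to 3. The distance between the Mmp9 probes was therefore greater on every overexpression array, by 0.69 on average (exact permutation test, two-sided p = 0.1, the smallest possible). The Timp2 probes lay 2.60, 2.80 and 2.91 apart on the control arrays and 3.31, 3.41 and 3.28 apart on the overexpression arrays. That difference averaged 0.56 (exact permutation test, two-sided p = 0.1) and shrank to 0.20 after quantile normalization. The Mmp19 probes lay 2.33, 2.75 and 3.14 apart on the control arrays and 1.88, 1.70 and 2.50 apart on the overexpression arrays, which overlap (exact permutation test, two-sided p = 0.2). The mean distance of the Mmp19 probes was smaller with PGC-1α by 0.71, and with normexp the groups were apart, with differences of -0.88 after 75th percentile scaling and -0.68 after quantile normalization (exact permutation test, two-sided p = 0.1 in each).

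**Figure D3:**
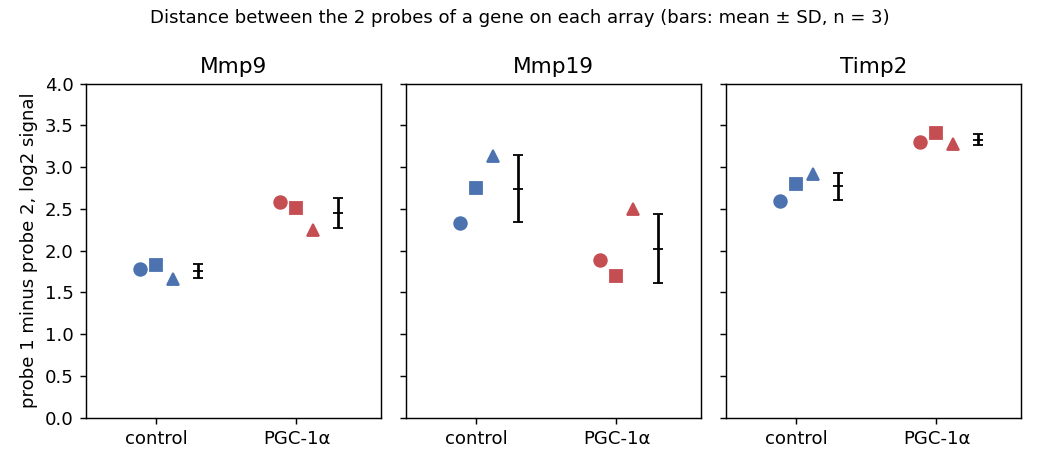
Log2 signal of probe 1 minus probe 2 of the same gene (y axis) on each array, for Mmp9, Mmp19 and Timp2, with circles, squares and triangles for replicates 1, 2 and 3 and bars for the mean ± SD (n = 3). The overexpression arrays lie above the control arrays for Mmp9 (2.25 to 2.58 against 1.66 to 1.82) and Timp2, and the groups overlap for Mmp19, which did not hold with normexp.

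Mmp3, Mmp12 and Mmp13 were not well above background on any of the 6 arrays, by any of their 5 probes. They encode stromelysin-1, the macrophage elastase and collagenase-3. The lowest intensity of a probe well above background was no more than 24.3 on any array. The Mmp13 probe (NM_008607) had intensities of 2.52, 3.05 and 5.29 in control cells and 2.42, 2.56 and 3.87 in PGC-1α-overexpressing cells. For the 3 probes of Mmp12 (NM_001320076 and NM_008605), intensities ran from 2.52 to 8.61.

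The Mmp3 probe (NM_010809) had intensities of 3.42, 3.38 and 5.42 in control cells and 6.26, 4.07 and 14.8 in PGC-1α-overexpressing cells. After scaling, all 3 of the overexpression arrays lay above the controls. The highest, overexpression replicate 3, still lay under the lowest probe well above background on its own array, 19.3. No fold change is given for these genes, since both groups were below background. With no filter on background the Mmp3 probe had an adjusted p of 0.0196 (limma).

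**Figure D4:**
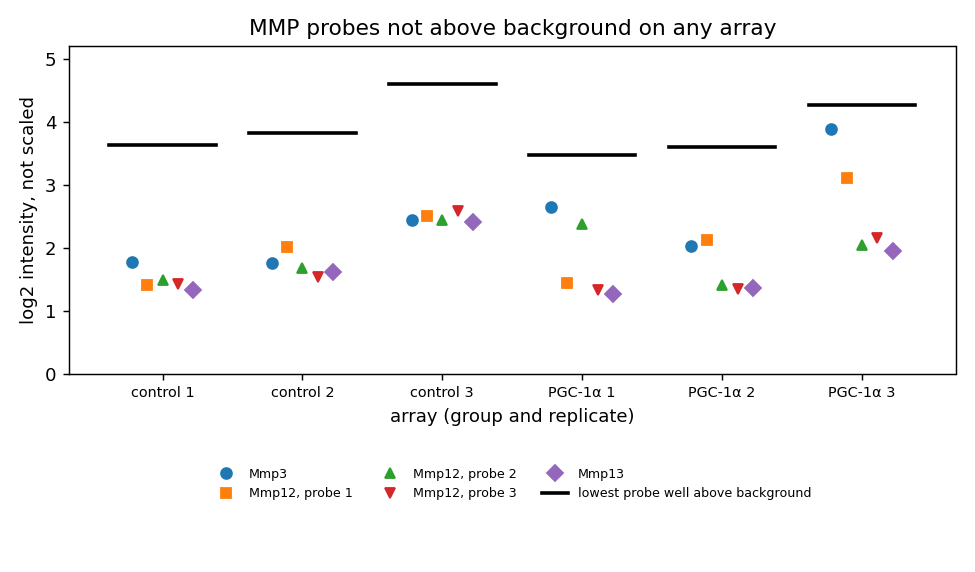
Log2 intensity before scaling (y axis) of the 5 probes of Mmp3, Mmp12 and Mmp13 on each of the 6 arrays (x axis), with a black line for the lowest probe well above background on that array. Every point lies below its line, the nearest being Mmp3 on overexpression replicate 3.

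Genes of the MMP family are partly clustered in the genome, and in the RefSeq order Mmp13, Mmp12, Mmp3 and Mmp8 lie with 6 more Mmp genes on chromosome 9. To show what lies before the start sites of detected and undetected members, the 110 bases upstream of the RefSeq start (GRCm38.p6, plus strand, 5′ to 3′) are printed for 4 genes. Capitals mark an AP-1 element (TGANTCA), a PEA3 element bound by ETS factors (AGGAAG, or CTTCCT on the other strand) or a TATA box (TATAAA). The windows are chr9:7272404-7272513 for Mmp13, chr9:7445712-7445821 for Mmp3, chr9:7347264-7347373 for the second of 2 Mmp12 starts and chr9:7558319-7558428 for Mmp8.
Mmp13: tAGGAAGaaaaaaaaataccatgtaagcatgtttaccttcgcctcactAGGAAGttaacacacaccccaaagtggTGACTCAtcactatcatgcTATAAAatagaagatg
Mmp3: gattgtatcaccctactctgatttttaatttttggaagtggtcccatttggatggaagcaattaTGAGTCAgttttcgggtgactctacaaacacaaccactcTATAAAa
Mmp12: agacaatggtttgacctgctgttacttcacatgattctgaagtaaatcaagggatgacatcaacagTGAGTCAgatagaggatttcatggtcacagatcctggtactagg
Mmp8: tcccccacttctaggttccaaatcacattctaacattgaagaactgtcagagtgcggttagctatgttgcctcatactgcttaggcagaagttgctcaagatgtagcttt

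In Mmp13 the AP-1 letters begin 35 bases before the start and the TATA letters 16 before it, with PEA3 letters at 109 and 62. In Mmp3 the AP-1 letters begin 46 bases before the start and the TATA letters 7 before it. The second Mmp12 start has AP-1 letters 44 bases before it and no TATA letters. The first Mmp12 start, not printed, has neither AP-1 nor TATA letters and has PEA3 letters 87 bases before it, so Mmp12 counts below as holding AP-1 through its second start only. The Mmp8 window printed has none of the 3 motifs. Promoter sequence was at hand for 8 of the 10 genes, not for Mmp9 and Mmp19. Searched over 250 upstream bases on both strands, AP-1 letters were found in 3 of these 8, Mmp3, Mmp12 and Mmp13, which are the genes below background, and in none of Mmp8, Mmp14, Timp1, Timp2 and Timp3. PEA3 letters were found in 7 of the 8, all but Timp2, and so in members that were higher, members that did not pass and members below background. Of all 32851 promoter windows in the table, 6.75% held AP-1, 29.5% PEA3 and 12.4% TATA letters. Over the 10 Mmp genes of the chromosome 9 cluster, AP-1 letters were found in 8 and TATA letters in 7. The 8 were the cluster genes whose probes were not well above background on any array, and the other two, Mmp8 and Mmp27, were above it on 6 and 3 arrays. This comparison over the cluster was made after the values were seen. It includes Mmp3, Mmp12 and Mmp13 again, so it is not separate from the count over members. How often undetected genes elsewhere hold AP-1 letters was not tested. A match of letters is a description of the sequence and not a bound site.

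The remaining MMPs and Timp4 were read in the same way. Of these 17 genes, 7 were tested, 4 were higher, 1 was lower and 2 did not pass, with a median log2 fold change of 0.40, beside 0.23 for all genes. Of all genes tested, 34.6% were higher and 18.4% lower. Mmp2, which encodes gelatinase A, read -2.19, -2.35 and -2.47 in control cells and -3.19, -2.71 and -3.08 in PGC-1α-overexpressing cells. It fell by 0.65 (SE 0.17, adjusted p = 0.0135, limma). Mmp16, which encodes another membrane-anchored MMP, rose by 0.85 (SE 0.14, adjusted p = 0.00265, limma), from -5.38, -5.16 and -5.45 to -4.40, -4.59 and -4.46. Mmp28, which encodes epilysin, rose by 0.71 (SE 0.21, adjusted p = 0.0241, limma). These 3 genes also passed after quantile normalization, in the same directions. With normexp and 75th percentile scaling Mmp2 changed by -0.40, and with normexp and quantile normalization Mmp16 changed by 0.21. Mmp1a, Mmp1b, Mmp7, Mmp10, Mmp15 and Mmp20 were not well above background on any array.

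Of 15 genes of proenzyme activation, surface partners and clearance, 12 were tested and 7 passed, all higher. Of all genes 53% passed, 34.6% higher and 18.4% lower. Reck, which encodes a membrane-anchored MMP inhibitor, read -5.81, -5.47 and -5.97 in control cells and -4.36, -4.45 and -4.90 in PGC-1α-overexpressing cells. Reck, which counts among the 7, was well above background on 2 of the 3 control arrays and on all 3 overexpression arrays. It therefore met the filter only through the group where it was higher, so the size of its change is uncertain. Its log2 fold change was 1.18 (SE 0.20, adjusted p = 0.00271, limma), and it was 0.97 after quantile normalization, and 0.74 or 0.34 with normexp before the 75th percentile scaling or quantile normalization. Bsg, which encodes the MMP inducer basigin, rose by 0.73 (SE 0.14, adjusted p = 0.00483, limma), and only by 0.10 after quantile normalization, where it did not pass. The direction within this list depended on the scaling. After quantile normalization 8 passed, 4 higher and 4 lower, where 42.1% of all genes passed, 21.2% higher and 20.9% lower. The lower genes of the list were the plasminogen activators Plau (-0.67) and Plat (-0.41), the proprotein convertase Furin (-0.47) and Lcn2 (-0.58), whose product binds MMP-9. These 4 were named after their values were seen. Plau had no value on replicate 1 of either group, so its change rests on 2 arrays against 2. It passed in 6 of 14 alternative fits.

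Of 21 ADAM and ADAMTS genes, which encode related zinc proteases that shed surface proteins or cut proteoglycans, 18 were tested, 7 were higher and 3 lower, so that 10 passed where 53% of all genes did. Adamts1, which encodes a protease of aggrecan and versican, read -1.91, -1.85 and -2.08 in control cells and -3.86, -3.96 and -3.77 in PGC-1α-overexpressing cells, and fell by 1.92 (SE 0.13, adjusted p = 8.74e-05, limma). Adamts6 fell by 1.96 (SE 0.36, adjusted p = 0.00374, limma). Adamts3, whose product processes procollagen, rose by 1.88 (SE 0.18, adjusted p = 0.000303, limma), and Adam28 rose by 0.88 (SE 0.13, adjusted p = 0.00175, limma). These 4 genes passed in all 19 alternative fits, while the size of the change depended on the background correction. With normexp and 75th percentile scaling Adamts1 changed by -1.28, Adamts6 by -0.81 and Adamts3 by 1.09, and with normexp and quantile normalization Adamts3 changed by 0.73 and Adam28 by 0.43. The median of the list, 0.23, was the same as that of all genes to 2 decimals.

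Of 24 matrix protein genes, the class of proteins that MMPs cut, 19 were tested. Here 12 were higher and none lower, where 34.6% of all genes were higher and 18.4% lower. After quantile normalization 10 were higher and none lower, where the shares of all genes were 21.2% and 20.9%. The median log2 fold change was 0.77, beside 0.23 for all genes, and 0.46 after quantile normalization, beside 0.02. Tnc, which encodes tenascin-C, read -1.88, -1.25 and -1.78 in control cells and -0.01, 0.34 and -0.26 in PGC-1α-overexpressing cells, a rise of 1.66 under either scaling (adjusted p = 0.0011, limma). Nid1, which encodes the basement membrane protein nidogen-1, rose by 1.22 (SE 0.19, adjusted p = 0.00195, limma), and by 0.81 or 0.33 with normexp before the 75th percentile scaling or quantile normalization. Nid1 and Col3a1 were well above background on 2 of the 3 control arrays and on all 3 overexpression arrays. Both met the filter only through the group where they were higher, and both count among the 12 and, after quantile normalization, among the 10. When a probe had to be well above background on all 6 arrays, 10 genes of the list passed. No share of all genes is given for that setting.

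**Figure D5:**
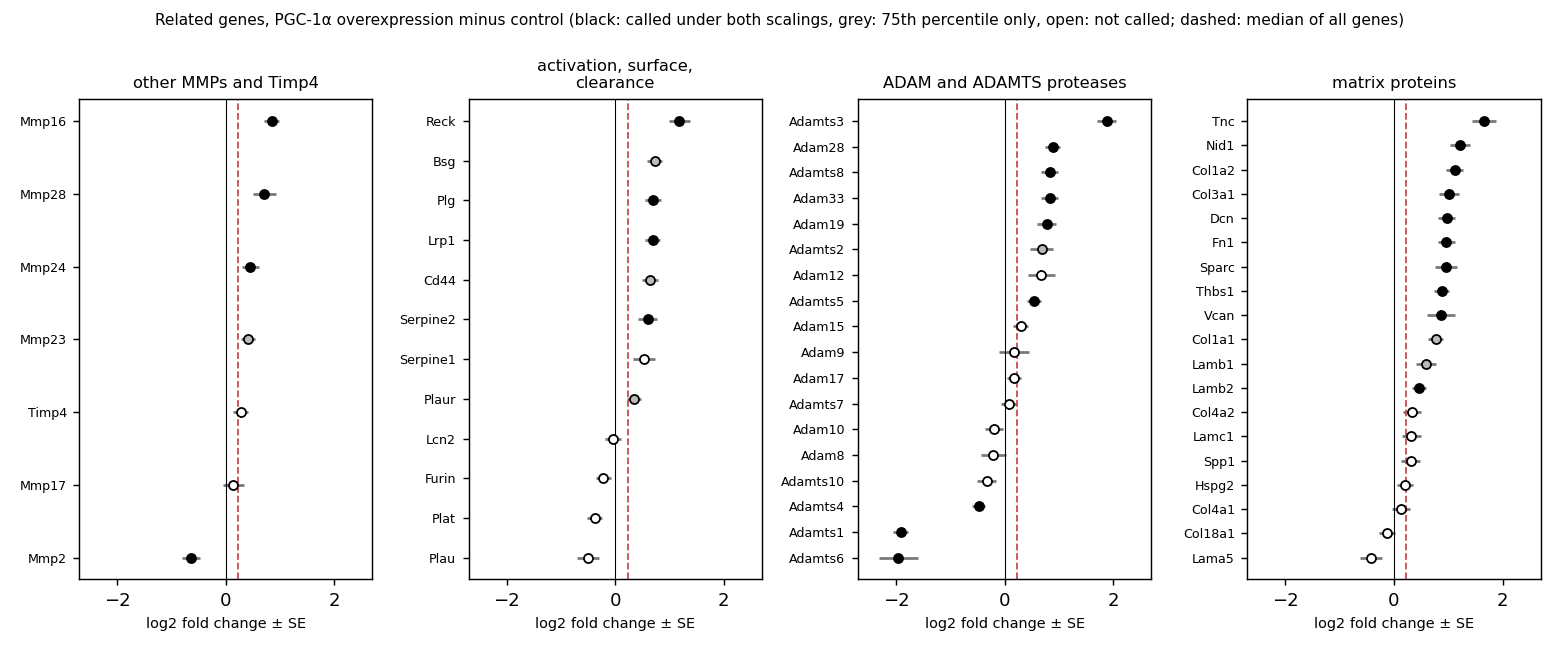
Log2 fold change ± SE (x axis) of the tested genes of the 4 related lists (y axis), with black for genes past the threshold under both scalings and in 1 direction, grey for those that passed only under the 75th percentile scaling, open for the rest and a dashed line for the median of all genes, 0.23. The matrix protein genes that passed all lie on the positive side, while Mmp2, Adamts1, Adamts4 and Adamts6 lie on the negative side.

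Markers of other cell types were measured beside these results, and their sums depended on the scaling. Sums after quantile normalization are in multiples of the geometric mean of the 75th percentiles. Of 5 fibroblast markers 4 were tested, and their summed signal, in multiples of the 75th percentile, ran from 15.4 to 16.5 in control cells and from 26.5 to 32.0 in PGC-1α-overexpressing cells. After quantile normalization the sum was 18.0 to 19.5 against 23.5 to 24.8. Most of the fibroblast sum was Col1a1, with log2 signals of 3.49, 3.58 and 3.52 against 4.23, 4.46 and 4.21. Col1a1, Col1a2 and Dcn, which also stand in the matrix list, were higher (Col1a1 did not pass after quantile normalization), Pdgfra fell by 1.63 (adjusted p = 0.000288, limma), and Lum was not well above background on any array. Of 9 neutrophil markers 5 were tested, with a summed signal from 4.62 to 5.52 in control cells and from 5.82 to 7.62 in PGC-1α-overexpressing cells. After quantile normalization these ranges overlapped, at 5.19 to 6.13 against 5.39 to 6.41, and 1 of the 5 was still called higher. Prtn3 carried nearly all of the neutrophil sum, with log2 signals of 2.41, 2.13 and 2.22 against 2.45, 2.85 and 2.59. It did not pass (0.38, adjusted p = 0.0729, limma), nor after quantile normalization (0.06, adjusted p = 0.751, limma). The neutrophil sum is therefore mainly the reading of 1 gene. S100a9, Ngp and Ltf were not well above background on any array, and Ly6g was on no more than 2. Of 4 astrocyte markers 3 were tested, with a sum from 0.241 to 0.278 in control cells and from 0.408 to 0.520 in PGC-1α-overexpressing cells, and from 0.254 to 0.277 against 0.397 to 0.520 after quantile normalization. Slc1a3 was not well above background on any array. The 9 tested microglia and macrophage markers summed to between 71.7 and 74.0 in control cells and to between 101 and 118 in PGC-1α-overexpressing cells, but after quantile normalization the ranges overlapped, at 84.7 to 90.0 against 87.4 to 91.4. The part of these markers in the results on MMPs, TIMPs and matrix proteins was not tested. All 6 samples were labelled BV2, so the sums describe signal in cultures of 1 line and not numbers of other cell types. Whether cells within a culture differed cannot be told from such bulk RNA.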

How the data were processed

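The authors' scanner software, Agilent Feature Extraction 11.5.1.1 per the file headers, gave a green-channel intensity for each spot with the background subtracted, deposited without normalization between arrays. The labels give the dye as Cy3 and their protocol as Cy5. A second deposited table holds log2 values of some probes, which the authors had normalized in GeneSpring (procedure not given in the sources used here), and served as an alternative. From the intensities, log2 was taken, each array's 75th percentile over non-control spots subtracted, outlier-flagged spots left out and repeated spots averaged. A tested probe had at least 2 values per group. Of 56605 probes, 33767 matched a RefSeq gene (GRCm38) by accession. The fit was limma's lmFit with eBayes (limma 3.58.1, R 4.3.3), two-sided and tested on simulated data first, and a gene stood at its brightest tested probe. Tables were made with Python 3.11.15, pandas 2.3.3 and numpy 2.4.6 and plots with matplotlib 3.10.9. Promoter sequences are from RefSeq. Alternatives were quantile normalization, median scaling, normexp (offset 50) with either scaling, 2 other background filters, outliers kept, slide or replicate number as a block, slide 1 alone, array weights, robust estimation with a variance trend, 1 value per gene, the authors' values, and each array left out. Precision is limited by how few arrays there are. The members and lists were chosen with earlier results of these data known. Named genes are the 10 members, Ppargc1a and, per list, up to 2 called genes with the largest positive and 2 with the largest negative change, above background in each group and without overlap. Marker genes, Adamts4, Col3a1, Mmp27 and list genes named by a call under 1 scaling or by no signal above background fall outside this rule. All of these were named after their values were seen.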

Additional observations from a re-analysis of the deposited data

Results flagged for a closer look

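The dimmer Timp3 probe lay outside the comparison because it was well above background on 2 of 3 arrays of each group, yet it read higher on every overexpression array than on any control array, with a difference of 0.75 on the log2 scale. Without the filter on background it had an adjusted p of 0.059 (limma). It met the filter and passed without overexpression replicate 3 (0.94, adjusted p = 0.0120, limma) and on slide 1 alone (0.88, adjusted p = 0.0281, limma), and it did not pass without control replicate 3 (0.69, adjusted p = 0.0877, limma) or with the authors' log2 values (0.43, adjusted p = 0.112, limma). Groups of 3 arrays are too small for a search for single outlying samples, and none was made.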

How the results depend on the processing

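The lower signal of the brighter Mmp19 probe kept its direction and its call in every alternative that gave a p, and the second probe passed in 2 of 19. Of the 10 genes of the family, 4 passed in the reported fit, and 1 passed after quantile normalization, 2 with median scaling, 2 with normexp and quantile normalization, 2 with no background filter (Mmp19 and Mmp3, whose probe is below background on every array, so 1 of the 7 genes otherwise tested), 1 with the authors' log2 values and between 1 and 4 with 1 array left out. Counted over probes, 4 passed in the reported fit, with 1, 2, 2, 2 (again with Mmp3) and 1 in those settings, 7 with array weights and between 1 and 5 with 1 array left out. The fewest, 1, came without control replicate 3 or overexpression replicate 2. Of the other MMPs and Timp4, 5 passed, and 3 did with median scaling, 2 with normexp and quantile normalization, 3 with no background filter, 3 with the authors' log2 values and between 1 and 5 with 1 array left out, the fewest without overexpression replicate 1. The cause of these differences was not tested. The share of all genes that passed is given only for the reported fit (53%) and after quantile normalization (42.1%). In the other settings the counts therefore cannot be set against all genes. The counts for the other 3 lists stayed within 1.5 times in all alternatives. The brighter Timp2 probe turned from 0.34 to -0.021 with normexp and quantile normalization and to -0.00085 with the authors' log2 values. Mmp8 and Mmp9 lost their calls in 10 and 11 of the alternatives, Timp3 in 6. The replicate block and the slide block each left the count at 4 genes. With the slide as a block the adjusted p was 0.00980 for Mmp8, 0.00771 for the brighter Mmp9 probe and 0.00860 for the brighter Timp3 probe (limma). Same-numbered arrays deviated from their group means with correlations of -0.21, 0.0031 and 0.59 across probes, so the numbers were not taken as pairs. Within slide 1, Mmp19 changed by -1.14, Mmp8 by 0.58, Mmp9 by 0.63 and Timp3 by 0.85, and the single pair on slide 2 differed by -1.02, 0.45, 0.60 and 0.99. The alternatives added after the values were seen were the distances between probes and the marker sums under other scalings and the dimmer Timp3 probe. Dim probes such as that of Mmp8 and the dimmer probe of Timp3 lie close to background, which limits them.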
